A study of Homo sapiens with 2 samples.

Results

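The tripartite-motif (TRIM) family of ubiquitin ligases, with the family members MID1 and MID2, was described in T47D cells with and without a short hairpin RNA against TRPS1. Members were all features whose transcript accession carries a symbol of TRIM followed by a digit, or MID1 or MID2. A feature is 1 transcript accession on the array, and the rule gave 55 features of 45 genes out of 28973 features in all. Every named feature of a gene with several was kept. Of the 28973 features, 16375 carried no symbol and could not be matched to the family.

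T47D is an established luminal, oestrogen receptor positive breast cancer cell line. The control group (NC) was T47D carrying a negative control lentivirus and the other group (shTRPS1) was T47D carrying a lentivirus with a hairpin against TRPS1, a GATA-type transcriptional repressor. Each group had 1 one-colour NimbleGen array, so there was no spread between replicates, no test was possible and every difference compares 2 arrays. The number and sequence of hairpins, the time after infection and the selection of cells are unstated in the labels, and both groups carried a lentivirus.

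TRIM proteins share an N-terminal module of a RING finger, which recruits ubiquitin-loaded E2 enzymes, then B-boxes and a coiled coil through which they form dimers. The C-terminal domain selects the substrate and sorts the family into classes. A PRY-SPRY domain is found in many antiviral members, a COS box binds microtubules, and a PHD finger with a bromodomain reads chromatin. Several members are induced by interferon and act on innate immune signalling, and TRIM25 was first described as an oestrogen-responsive protein.

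The labels were checked first. The 1 feature of TRPS1 read 726 in NC and 603 in shTRPS1, only 17.0% lower, a drop too small to establish the knockdown from 1 array per group. Every direction given here rests on the array labelled shTRPS1. Background was set separately on each array from 60 olfactory receptor features, a family not known to act in breast epithelium, at their 95th percentile. That gave 397 for NC and 325 for shTRPS1. The level was lower in the shTRPS1 array, while the median intensity over all features was higher there, 414 beside 402 in NC. More features lay above background in shTRPS1 alone, 2207 (7.62%) against 563 (1.94%) in NC alone, and the reason was not tested. A feature was called when it was 2-fold or more apart (a log2 difference of 1) and exceeded background on 1 array or both. Of 16780 features above background, 665 (3.96%) were called higher and 474 (2.82%) lower in shTRPS1. All 8 luminal epithelial marker genes checked were above background on both arrays. Features of 2 leukocyte markers and 1 endothelial marker were above background on neither, and the fibroblast markers had no named feature.

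The promoter of MID1, whose 2 features were both called, is shown with those of 4 members that hold a GATA word or an interferon-response word, since TRPS1 binds GATA sites and interferon factors bind the second word. Each is the 250 bases upstream of the annotated start, 5′ to 3′ on the gene's strand, from RefSeq on GRCh38.p14. Capitals mark the words searched on both strands, which for GATA factors were AGATAA or AGATAG, or TGATAA or else TGATAG, and GAAA, any 2 bases and again GAAA for interferon factors.
MID1, chrX:10833684-10833933, minus strand: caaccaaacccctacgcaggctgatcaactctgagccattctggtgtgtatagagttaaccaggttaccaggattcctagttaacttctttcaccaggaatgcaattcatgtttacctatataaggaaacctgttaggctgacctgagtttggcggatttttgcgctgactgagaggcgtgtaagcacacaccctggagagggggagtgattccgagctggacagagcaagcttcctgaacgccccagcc
TRIM21, chr11:4393703-4393952, minus strand: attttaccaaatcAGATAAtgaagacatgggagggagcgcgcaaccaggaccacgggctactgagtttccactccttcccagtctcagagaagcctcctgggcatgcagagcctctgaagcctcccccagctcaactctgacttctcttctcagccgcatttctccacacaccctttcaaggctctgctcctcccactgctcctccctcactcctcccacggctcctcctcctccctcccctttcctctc
TRIM26, chr6:30213407-30213656, minus strand: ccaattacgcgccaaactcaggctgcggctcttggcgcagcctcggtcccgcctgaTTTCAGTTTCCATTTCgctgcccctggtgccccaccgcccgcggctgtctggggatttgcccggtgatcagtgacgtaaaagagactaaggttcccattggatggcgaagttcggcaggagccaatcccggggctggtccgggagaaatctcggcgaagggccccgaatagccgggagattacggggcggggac
TRIM34, chr11:5624751-5625000, plus strand: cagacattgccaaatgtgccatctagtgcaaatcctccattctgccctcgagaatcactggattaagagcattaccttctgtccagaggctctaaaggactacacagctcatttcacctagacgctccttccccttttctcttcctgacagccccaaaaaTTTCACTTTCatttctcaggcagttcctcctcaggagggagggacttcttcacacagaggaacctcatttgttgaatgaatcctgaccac
TRIM5, chr11:5685075-5685324, minus strand: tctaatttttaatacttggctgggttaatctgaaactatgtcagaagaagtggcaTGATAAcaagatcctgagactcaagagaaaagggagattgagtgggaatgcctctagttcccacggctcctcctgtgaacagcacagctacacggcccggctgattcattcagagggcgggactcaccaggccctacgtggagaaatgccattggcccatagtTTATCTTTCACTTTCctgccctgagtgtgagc

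The RefSeq table held promoters for 35 of the 45 member genes. A GATA word stood in 8 of them (22.9%), against 22.3% of all 35116 promoters, and the MID1 window held neither word. The interferon word stood in 6 member promoters (17.1%), against 3.02% of all promoters, and no test of that difference was made. These 6 were TRIM5, TRIM14, TRIM16, TRIM26, TRIM34 and TRIM44. In TRIM26 the capitals are a pair of overlapping interferon words, and in TRIM5 a GATA word overlaps the interferon word by 1 base. The words are letter matches in a fixed window and not measured binding sites. Members were cut to 1 promoter per symbol, a cut not made in the set of all promoters, and TRIM6 and TRIM6-TRIM34 were counted separately.

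Of the 55 member features, 26 were above background on at least 1 array, and these belonged to 24 genes. Both arrays were above background for 19 features and the shTRPS1 array alone for 7. No member was above background in NC alone. A total of 4 features of 3 genes were called higher (15.4% of the 26) and 0 lower, beside the 3.96% and 2.82% of all features. The 4 calls were both features of MID1, TRIM59 and TRIM62. All of them were dim in NC, and no feature with both arrays above background was called in either direction. Among all features above background in shTRPS1 alone, 463 of 2207 (21.0%) were called higher, beside 4 of 7 members. In RNA from a whole culture, fewer cells with a transcript and less of it per cell cannot be told apart. These shares describe 2 arrays, and no test set the members apart from other features.

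**Figure D1:**
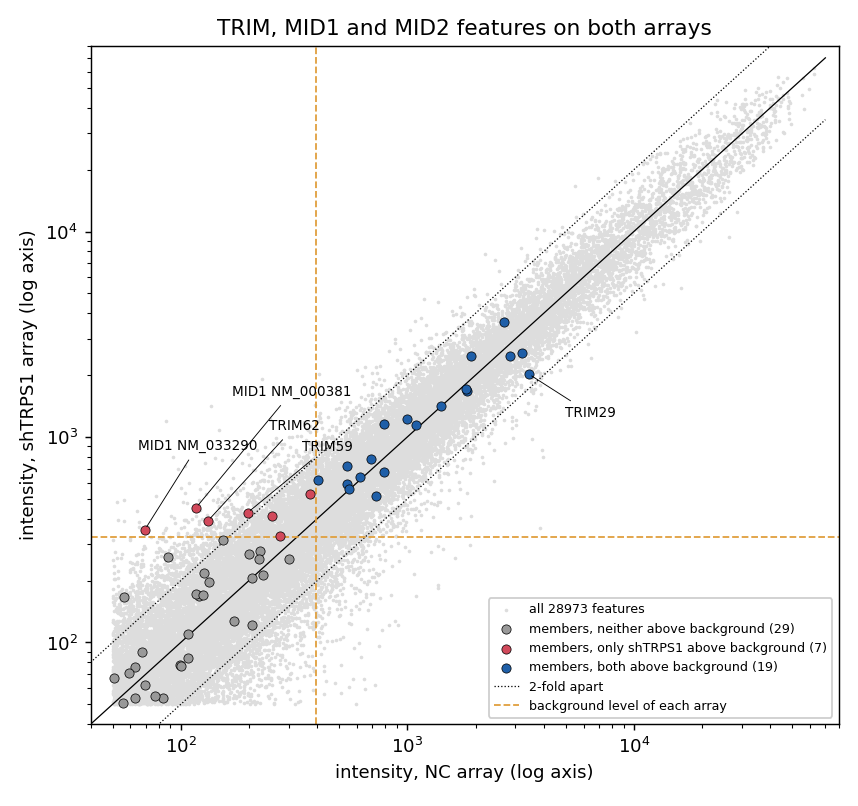
Intensity of each feature in the NC array (x, log axis) against the shTRPS1 array (y, log axis), with all features in grey and the 55 members coloured by whether they exceed the background level of each array (dashed). The 4 called features of MID1, TRIM62 and TRIM59 lie above the upper 2-fold line but left of the NC background level of 397, and all members above background on both arrays lie between the 2-fold lines.

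MID1 encodes a RING ligase of the COS, fibronectin and PRY-SPRY class that sits on microtubules and directs degradation of the catalytic subunit of phosphatase PP2A through its partner IGBP1. Mutations of this X-linked gene cause Opitz G/BBB syndrome. Its feature NM_000381 read 117 in NC and 452 in shTRPS1, a log2 difference of 1.95. Its feature NM_033290 read 69.5 and 354, a log2 difference of 2.35. Both shTRPS1 values exceeded that array's background and both NC values lay under theirs. With the NC value raised to the background level, NM_000381 was at least 1.14-fold higher, while NM_033290 gives no bound because 354 does not exceed 397. The labels do not say whether the features of 1 gene share probes, so they are not independent measurements. Among 848 genes with several named features, MID1 and ATF4 were the 2 (0.236%) with every feature called higher. The 848 include genes with no feature above background, such as TRIM23, which could not be called. Both MID1 features passed the filter through the shTRPS1 array alone. The count comes from the same values as the calls and gives them no support.

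MID2, the close paralogue of MID1, went the other way at levels that carry little information. It read 83.5 in NC and 53.7 in shTRPS1, and neither exceeded background. TRIM46, a member of the same class that organises axonal microtubules, read 540 and 723, a log2 difference of 0.42 with both arrays above background. TRIM36, also of this class, read 77.1 and 54.6, with neither above background. The 2 MID1 features were therefore the only called ones among 5 features of 4 genes in this class.

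TRIM62 and TRIM59 were the other members called. TRIM62, a PRY-SPRY ligase also known as a regulator of mammary acinar structure, read 132 in NC and 391 in shTRPS1, a log2 difference of 1.57. The shTRPS1 value does not reach the NC background of 397, so no fold bound can be given. TRIM59, which has a transmembrane segment, read 197 and 428, a log2 difference of 1.12, and was at least 1.08-fold higher by the bound. Each has 1 feature, so neither has a check within the arrays.

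The 3 other features above background in shTRPS1 alone were under 2-fold. The readthrough transcript TRIM6-TRIM34 read 252 and 415 (log2 difference 0.72), TRIM65 read 373 and 531 (0.51), and TRIM39 read 274 and 329 (0.26). TRIM65, a ligase for the RNA sensor IFIH1, was at least 1.34-fold higher by the bound. For TRIM39 the shTRPS1 value was barely over its background of 325.

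**Figure D2:**
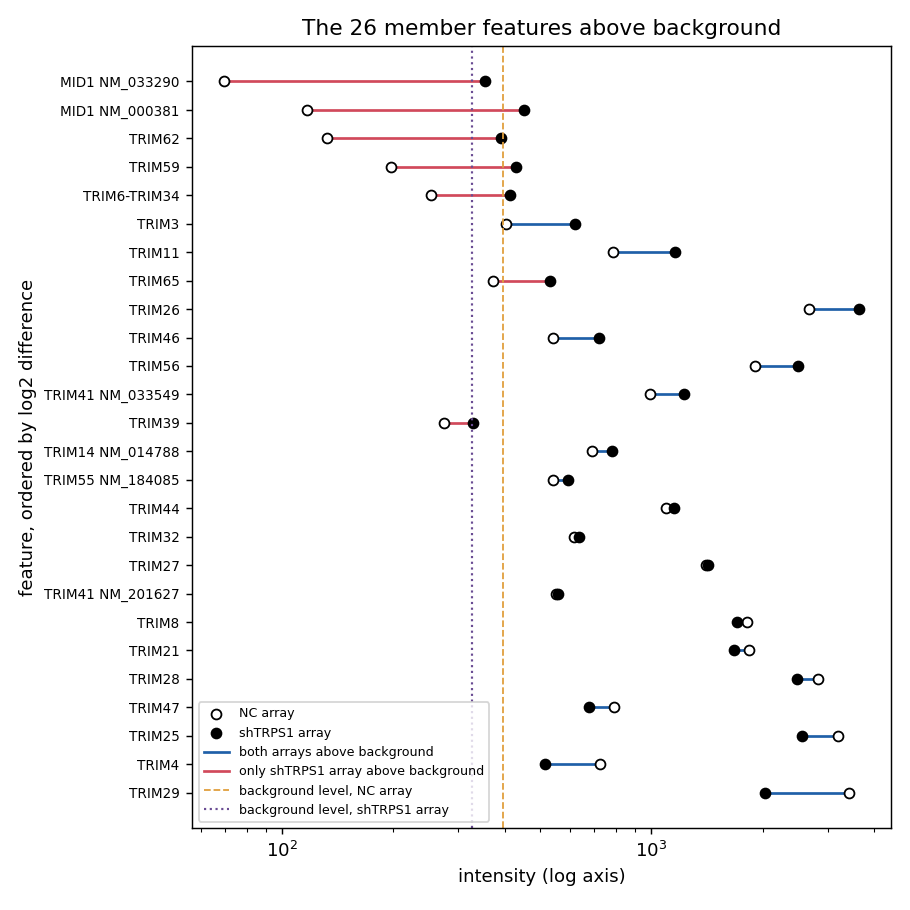
Intensity (log axis) in the NC array (open) and the shTRPS1 array (filled) of the 26 member features above background, ordered by log2 difference, with the background level of each array as a vertical line. The MID1 features, TRIM62 and TRIM59 have NC values under 200, while features above background on both arrays (blue) have short lines in both directions, the longest downward that of TRIM29.

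Among the 19 features above background on both arrays, log2 differences ran from -0.76 to 0.62 with a median of 0.05, beside 0.04 over all 14010 such features. Of the 19, 12 were positive (63.2%) and 7 negative, beside 53.3% positive over all such features, and 10 lay within 0.25 of 0. The sign count depends on the scaling. With quantile normalization TRIM27 (-0.03), TRIM32 (-0.03), TRIM44 (-0.002) and the TRIM41 feature NM_201627 (-0.04) turned slightly negative. Of all such features 1.44% were called higher and 1.41% lower, beside 0 of 19 members in each direction. The SD across the 19 was 0.36, beside 0.44 across all such features.

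TRIM29 had the lowest difference of the family among features above background. It is a RING-less member typical of basal and squamous epithelium, and it read 3432 in NC and 2026 in shTRPS1, a log2 difference of -0.76 or 1.69-fold lower. TRIM4, a PRY-SPRY ligase, followed with 725 and 516, a log2 difference of -0.49. Upward, TRIM3, an NHL-domain member, read 403 and 620 (0.62), with its NC value close to the background of 397. TRIM11, a PRY-SPRY ligase, read 787 and 1158 (0.56). None of these 4 features was 2-fold apart.

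Antiviral and interferon-linked members above background on both arrays read in both directions. TRIM25, which ubiquitinates the RNA sensor RIG-I, read 3204 and 2558, a log2 difference of -0.32. TRIM21, a cytosolic antibody receptor, read 1838 and 1677 (-0.13). TRIM56, a ligase of DNA and RNA sensing, read 1903 and 2490 (0.39), and TRIM26 read 2676 and 3646 (0.45). The signs were thus split between these 4 features, and each was under 2-fold.

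TRIM14, a RING-less adaptor of antiviral signalling, read 691 and 780 in feature NM_014788 (0.17). Its other feature read 199 and 268, below background. TRIM38, a regulator of innate signalling, read 125 and 170, below background on both arrays. Of the 9 features of the 6 genes with the interferon word, 8 were positive. Their median log2 difference was 0.21, beside 0.21 over all 55 member features and 0.04 over all features. Of the 9, 3 were above background, with log2 differences from 0.07 to 0.45, and none of the 3 was 2-fold apart.

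In the list of 37 interferon response genes, 28 had a named feature. Of its 42 features 34 were above background, with a median log2 difference of 0.30, beside 0.22 over the 26 member features and 0.08 over all 16780. These include features above background in shTRPS1 alone, 5 in the list and 7 among the members, and passing in that array alone favours higher readings. With both arrays above background the medians were 0.20 over 29 list features, 0.05 over 19 member features and 0.04 over all 14010. Of those 29 list features 21 were higher (72.4%) and 8 lower, ISG15 among the lower at 3664 and 2500 (-0.55). The share higher was 53.3% over all such features and 67.9% over those of RNF-named genes, the comparison family described below. Some genes supply several of the list features, PML among them, and in some genes the features differ in sign. The list had 4 of 34 features called higher and 0 lower, beside 3.96% and 2.82% of all features, and these 4 were OAS3, STAT2, EIF2AK2 and 1 feature of PML. STAT2, a transcription factor of interferon signalling, read 222 and 572, and EIF2AK2, an RNA-activated kinase, read 154 and 424, both with a dim NC value and at least 1.44-fold and 1.07-fold higher by the bound. OAS3, an RNA-activated synthetase, read 1742 and 3993 with both arrays above background. Of the antiviral signalling proteins on which TRIM ligases act, 10 of 17 features were above background, with a median of 0.01 and none called.

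PML is the tripartite protein also numbered TRIM19 and the scaffold of PML nuclear bodies, but its symbol lies outside the rule. It is also in the interferon list above. It had 7 features, all higher in shTRPS1. The values were 533 and 787 for NM_002675, 592 and 1183 for NM_033239, 641 and 1368 for NM_033240, and 935 and 1504 for NM_033244. These gave log2 differences of 0.56, 0.998, 1.09 and 0.69. NM_033247 read 485 and 515 (0.09), NM_033246 read 181 and 345 (0.93) and NM_033249 read 167 and 228 (0.45). A total of 5 of the 7 features were above background on both arrays, and NM_033240 was the 1 called. In contrast to MID1, those 5 PML features were higher without a dim NC value, while NM_033246 and NM_033249 had dim NC values. PML transcripts share exons, and their features may share probes. In the list of tripartite or related proteins under other symbols, PML supplied 6 of the 7 features above background, and the other, BSPRY, read 574 and 550.

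The chromatin members were under 2-fold apart. TRIM28, the corepressor of KRAB zinc finger proteins, read 2834 and 2480, a log2 difference of -0.19. TRIM24, a nuclear receptor coregulator, read 69.4 and 61.9, below background. Of 12 features of TRIM28 partners 10 were above background, all on both arrays, with a median of -0.07 and none called. SETDB1, the histone methyltransferase recruited by TRIM28, read 1326 and 1755 (0.40). For partners of TRIM24 and TRIM33, 7 of 9 features were above background, with a median of 0.07 and none called.

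Members without a C-terminal substrate domain and the other signalling members also stayed under 2-fold. TRIM8, which acts in STAT and NF-kB signalling, read 1817 and 1705 (-0.09). TRIM44, a RING-less member with deubiquitinase-like features, read 1094 and 1150 (0.07). TRIM27, a PRY-SPRY ligase of endosome recycling, read 1402 and 1420 (0.02). TRIM32, an NHL-domain ligase mutated in a limb-girdle muscular dystrophy, read 616 and 635 (0.05). TRIM47, a PRY-SPRY ligase, read 791 and 678 (-0.22). These features were bright enough on both arrays to be read, and the 2 readings of each lay close together.

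The COS-box muscle ligase TRIM55 had 1 of its 3 features above background, with 541 in NC and 593 in shTRPS1. The other 2 features read 99.3 and 78.1, and 230 and 212. Of the 5 skeletal muscle markers checked, ACTA1 and CKM had named features. ACTA1 read 22735 and 17075, and CKM read 1112 and 646. ACTA1 is close in sequence to the cytoplasmic actins, and what these features detect in T47D was not tested.

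Of 8 member genes with several features, 6 had all differences positive in the values as deposited, TRIM7 had both negative and TRIM55 was mixed. With median-centring TRIM5 and TRIM41 became mixed too, at -0.006 for NM_033092 and -0.02 for NM_201627. The spread within a gene was 0.22 to 0.48 log2 units in 7 genes, MID1 included with 0.40. In TRIM5, the retroviral restriction factor, it was 1.54. Its feature NM_033034 read 56.2 and 167 while NM_033092 read 108 and 110 and NM_033093 read 222 and 256, all below background. TRIM41, a PRY-SPRY ligase, had features at 994 and 1225 (0.30) and at 552 and 559 (0.02), both above background on both arrays. TRIM37, a MATH-domain ligase of centrosome control, read 117 and 173, and 225 and 280, below background. TRIM23, an ARF-domain member, read 63.0 and 75.7, and 120 and 168, also below background.

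**Figure D3:**
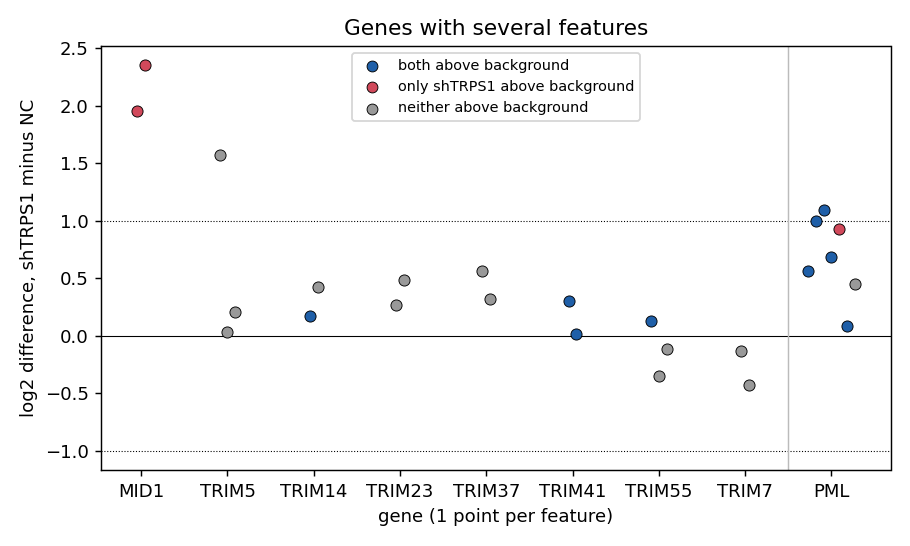
Log2 difference, shTRPS1 minus NC, of every feature of the 8 member genes with several features and, right of the grey line, of PML, coloured by background status. Both MID1 features lie near 2 and are above background in shTRPS1 alone, the TRIM5 features range from 0.04 to 1.57 below background, and the 7 PML features are all positive.

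A further 29 features of the family were above background on neither array, and their differences ran from -0.76 to 1.57. A total of 3 of them were at least 2-fold higher and 0 lower, where 5.90% and 6.44% of all 12193 such features were. These 3 were TRIM45 at 88.3 and 262, the TRIM5 feature NM_033034, and TRIM6 at 153 and 315. TRIM45 is a filamin-domain member and TRIM6 a PRY-SPRY ligase that makes free ubiquitin chains. The TRIM6 value in shTRPS1 lay just under the background of 325, so it was the member nearest to a further call. At the lower end were TRIM50 (206 and 122) and MID2. Differences between values below background are measured readings only and bound no fold. Of the olfactory receptor features 6.67% were also 2-fold apart, a share that counts both directions together and uses no background filter.

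Some members are close neighbours in the GRCh38.p14 annotation, with gaps under 200 kb. TRIM5, TRIM6, TRIM34 and their readthrough transcript overlap or adjoin. All 6 of their features had positive differences as deposited, though the TRIM5 feature NM_033092 turned slightly negative with median-centring (-0.006). Of the 6, 5 were above background on neither array, TRIM34 among them with 127 and 218 (0.78). The readthrough feature can detect TRIM6 or TRIM34 RNA, so these are not separate observations. In the group of TRIM7, TRIM41 and TRIM52 the signs were mixed, with TRIM7 at -0.13 and -0.43, TRIM41 at 0.30 and 0.02 and TRIM52 at -0.01, and only TRIM41 was above background. The neighbours TRIM47 and TRIM65 had opposite signs at -0.22 and 0.51. TRIM11 and TRIM17 were both positive, at 0.56 and 0.57, the latter from 133 and 197 below background. TRIM26 and TRIM39 were positive, and TRIM15 (59.2 and 71.0) and TRIM31 (62.6 and 53.5) nearby were below background.

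MID1's known partners were looked at as a list drawn from general knowledge. Of 12 features of 10 genes 8 were above background, with a median of 0.27 and none called in either direction. Of the 8, 2 were above background in shTRPS1 alone, and over the 6 above background on both arrays the median was 0.14. IGBP1, the adaptor between MID1 and PP2A, read 711 and 759 (0.09). PPP2R1A and PPP2R1B, the scaffold subunits of PP2A, read 1235 and 1049 (-0.24), and 1318 and 766 (-0.78) in the feature of PPP2R1B that was above background. MTOR, a kinase whose complex MID1 regulates, read 536 and 1028 (0.94), the member of this list nearest to a call. Of the E2 enzymes that serve TRIM ligases, 7 of 11 features were above background, with a median of -0.15 and none called.

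As a comparison family, genes named RNF, which mostly encode RING ligases without the tripartite motif, had 59 features of 55 genes. Of these 35 were above background, 1 (2.86%) was called higher and 0 lower, and the median was 0.20 beside 0.22 for the TRIM, MID1 and MID2 features. With both arrays above background the medians were 0.18 over 28 RNF features and 0.05 over 19 member features. The families were not tested against each other, since there is 1 array per group.

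**Figure D4:**
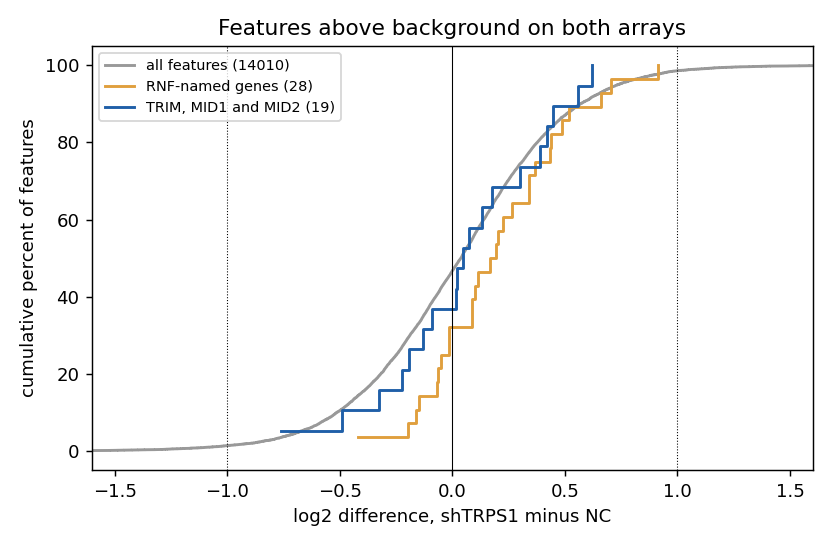
Cumulative percent of features (y) by log2 difference, shTRPS1 minus NC (x), for features above background on both arrays, with the 19 members, 28 RNF-named features and all 14010 features. The member curve runs from -0.76 to 0.62 and stays inside both 2-fold lines, and its median of 0.05 lies close to the 0.04 of all features.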

How the data were processed

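RNA of 2 samples, 1 T47D NC and 1 T47D shTRPS1, was hybridised to NimbleGen whole human genome arrays with Cy3, per the labels' protocols. The deposited values are intensities on a linear scale, 1 per transcript accession, and the submitters' processing notes name RMA, without version or settings. No deposited intensity was under 50 on either array, so dimmer transcripts, and family members without a feature, are not analysed here. A second table has 8 sample columns whose names match no label, so its values were not used, only its accession list.

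Log2 of the intensities was taken, and shTRPS1 minus NC computed per feature. Symbols came from RefSeq accessions (GRCh38.p14) or else the platform annotation, which named 12598 features. Background was the 95th percentile of 60 olfactory receptor features. A bound ("at least") replaces a dim value by its array's background level. The rule allowed every member, TRPS1, called members of the related lists and each list's best known member to be named. ATF4, PPP2R1A, PPP2R1B, MTOR, SETDB1, BSPRY and ISG15 were named after their values were seen, as were the 5 promoters printed. Members and lists were chosen with earlier results of these data known. The number of arrays limits the precision, and no p-value is given. Alternatives were other scalings, background rules, thresholds and feature choices. The calling was tested on simulated data with changes planted only in bright features, so that test does not cover dim readings such as those of the called members. Python 3.11.15, numpy 2.4.6, pandas 2.3.3, statsmodels 0.14.6 and matplotlib 3.10.9 were used.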

Additional observations from a re-analysis of the deposited data

How the results depend on the processing

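No paired analysis was possible because each group had 1 array, and leaving out an array leaves no comparison. Median-centring, quantile normalization and lowess correction (span 0.4) kept 4 features called higher and 0 lower, and no member's difference changed sign among those called. Some uncalled members with differences near 0 did change sign, and TRIM27 and the TRIM41 feature NM_201627 turned negative under each of these scalings. The count of higher calls rests on the background rule. It was 0 with both arrays required above background, 7 with no filter, and 2 with the higher background level of 397 on both arrays, an alternative chosen after seeing the data, under which the MID1 feature NM_033290 (log2 difference 2.35) and TRIM62 were no longer called. With background at the 90th percentile it was 6 of 32 features. A 3-fold threshold left 2, and a 1.5-fold threshold gave 6 higher and 1 lower. Taking 1 feature per gene gave 3, and the 24 member features listed in the second table also gave 3. The median over members above background, 0.22 in the values as deposited, was 0.045 with both arrays above background and 0.40 over features in the second table, and the mean was 0.36. Intensities near background limit the 4 member calls, which all have a dim NC value.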
